A study of Mus musculus with 180 samples.

Results

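Procr, Slamf1, Kit, Flt3, Cd34, Ly6a, Thy1, Itgam and Cd9 encode surface proteins by which mouse haematopoietic stem cells (HSC) and progenitors are sorted. The 9 genes were chosen for this role, and all 9 are among the 14825 genes listed. They were read in 180 single C57BL/6 cells of 4 populations, each cell being its own library. In Mx1cre/RosaLSL-Hoxb5-EGFP/+ mice, a stop cassette in front of Hoxb5 and EGFP at the Rosa26 locus is removed by Cre under the Mx1 promoter, which pIpC switches on. Multipotent progenitors (MPP) of these mice were transplanted with Sca1- helper cells into lethally irradiated CD45.1+ recipients, Hoxb5 was induced with pIpC, and 47 donor-derived CD11b+CD48+SK cells (S for Sca1+, K for c-kit+; SK cells below) were taken from the bone marrow of primary recipients at Week 8 post-transplantation. The other populations came from RosaLSL-Hoxb5-EGFP/+ mice without Cre, in which the cassette stays closed: 41 adult progenitors (WT-MPP) and 36 adult bone marrow HSC (BM HSC) from 8-week-old mice, and 56 fetal liver HSC (FL HSC) at Day14.5. All 4 populations carry the RosaLSL-Hoxb5-EGFP allele. No transplanted MPP without Hoxb5 induction were sequenced among these cells, so transplantation, irradiation, pIpC, Hoxb5 and the sort cannot be told apart in any difference of the SK cells. One tissue field calls every cell bone marrow, while the cell type field of the FL HSC says fetal liver.

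The sorts used the proteins of 5 of the 9 genes. MPP were taken as Lin-CD48-Sca1+c-kit+CD150-CD135+ cells, FL HSC as Lin-Sca1+c-kit+CD11b+CD150+ cells and SK cells as GFP+Lin-Sca1+c-kit+CD48+CD11b+ cells, a gate that the study defines at a later week. The lineage mixture listed for the MPP sort included CD11b, and the gate of the BM HSC is not given in the sources used here. Sca1 is the product of Ly6a, c-kit of Kit, CD150 of Slamf1, CD135 of Flt3 and CD11b of Itgam. A difference in these genes may therefore repeat the sort and is given as a check of transcript against gate. Procr, Cd34, Thy1 and Cd9 are in none of the stated gates. How far transcript follows surface protein in the same cell was not measured.

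As background, Kit is the receptor of stem cell factor and Flt3 the receptor of Flt3 ligand, both tyrosine kinases that carry growth signals in early blood cells. Slamf1 and Cd48 belong to the SLAM family of adhesion receptors, whose pattern separates adult HSC from progenitors. Procr, the endothelial protein C receptor, marks HSC of marrow and fetal liver. Cd34, a sialomucin, is low on most adult mouse HSC and high on fetal HSC and on progenitors, and Flt3 is gained as adult HSC become MPP. Ly6a and Thy1 are lipid-anchored proteins, Itgam is an integrin chain of myeloid cells that pairs with Itgb2 to form Mac-1, and Cd9 is a tetraspanin that is also abundant on megakaryocytes.

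The deposited values are TPM, in which each gene is corrected for transcript length and every cell is brought to the same total. Depth cannot be read from this unit, and a gene at 0 is only listed at 0. A gene was counted as present at a TPM of 1 or more. The genes present per cell had a median of 4514 in the SK cells (3039 to 6791), 3844 in WT-MPP (2615 to 4751), 4441.5 in BM HSC (2479 to 5861) and 5206.5 in FL HSC (3974 to 6789). No label names an animal, so each population counted as 1 sample, without a replicate check, and no test between populations was possible. The interval given beside a share of cells is exact (Clopper-Pearson, 95%) and allows for the number of cells counted, not for animals.

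The stretches of 250 bases before the RefSeq start of Slamf1, Flt3, Cd34 and Itgam in GRCm38.p6 are shown because Slamf1, Flt3 and Itgam are the members by which the stated gates differ, and because Cd34 split the BM HSC below. Each is written 5′ to 3′ on the strand of its gene, and capitals mark core letters that families of blood transcription factors are known to bind. These are GATAA or its reverse complement TTATC for the GATA family, GGAAG or its reverse complement CTTCC for the ETS family, and TGTGGT or its reverse complement ACCACA for the RUNX family. The Slamf1 window lies at chr1:171766882-171767131 on the plus strand, the Flt3 window at chr5:147400490-147400739 on the minus strand, the Cd34 window at chr1:194938571-194938820 on the plus strand and the Itgam window at chr7:128062390-128062639 on the plus strand.
Slamf1: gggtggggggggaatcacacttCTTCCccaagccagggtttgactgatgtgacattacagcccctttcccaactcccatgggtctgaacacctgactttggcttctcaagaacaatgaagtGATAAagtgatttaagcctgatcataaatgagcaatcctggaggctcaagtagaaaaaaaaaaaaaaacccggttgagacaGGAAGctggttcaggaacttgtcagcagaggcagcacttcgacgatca
Flt3: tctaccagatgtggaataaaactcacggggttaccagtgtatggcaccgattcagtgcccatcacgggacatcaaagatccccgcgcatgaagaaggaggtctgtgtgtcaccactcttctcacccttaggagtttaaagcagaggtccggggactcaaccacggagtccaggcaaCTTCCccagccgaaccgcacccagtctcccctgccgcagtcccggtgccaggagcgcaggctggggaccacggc
Cd34: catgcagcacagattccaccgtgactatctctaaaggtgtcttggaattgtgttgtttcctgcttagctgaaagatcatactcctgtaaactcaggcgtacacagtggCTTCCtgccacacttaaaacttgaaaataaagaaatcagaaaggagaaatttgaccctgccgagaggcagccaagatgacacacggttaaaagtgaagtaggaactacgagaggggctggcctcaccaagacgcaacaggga
Itgam: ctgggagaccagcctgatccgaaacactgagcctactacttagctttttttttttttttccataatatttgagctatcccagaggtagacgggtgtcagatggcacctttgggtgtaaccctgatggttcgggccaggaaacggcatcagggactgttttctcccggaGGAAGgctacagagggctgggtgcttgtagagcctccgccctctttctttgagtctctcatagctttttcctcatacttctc
Counting either strand, the Slamf1 window held 1 match to the GATA letters and 2 to the ETS letters. The windows of Flt3, Cd34 and Itgam held 1 match to the ETS letters each. None of the 4 held the RUNX letters. Among 32851 windows of the same length, 22.6% held the GATA letters, 64.1% the ETS letters and 14% the RUNX letters, and such a match describes the letters only. RefSeq windows were matched for 7 of the 9 genes, those of Ly6a and Thy1 being the exceptions.

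Kit and Ly6a, whose proteins every stated gate requires, were present in most cells of each population. In the GENCODE M21 annotation of GRCm38, Kit lies at bases 75574916 to 75656722 of chromosome 5 (plus strand) and Ly6a at bases 74994877 to 74998031 of chromosome 15 (minus strand). The lowest, median and highest TPM of Kit were 0, 12.1 and 102 in the SK cells, 0, 80.6 and 749 in WT-MPP, 0.397, 136 and 382 in BM HSC, and 0, 53.6 and 240 in FL HSC. The single-cell ranges overlapped widely, but 2 of 47 SK cells reached a TPM of 100, against 16 of 41 WT-MPP, 9 of 56 FL HSC and 24 of 36 BM HSC. A TPM of 10 or more was reached in 53.2% of SK cells and 63.4% of WT-MPP, and in 78.6% of FL HSC and 77.8% of BM HSC.

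Ly6a was the less variable of the pair between populations. Its lowest, median and highest TPM were 0, 228 and 2229 in the SK cells, 0.674, 259 and 3041 in WT-MPP, 1.36, 327 and 4829 in BM HSC, and 0, 217 and 4466 in FL HSC. The medians lay close together while the cells of each population spread widely. The highest cell alone held 23.2% of the summed TPM in BM HSC and 21.3% in FL HSC, so that the mean of Ly6a leans on single cells there. Both transcripts of the shared gate were present together in 30 of 47 SK cells, 34 of 41 WT-MPP, 43 of 56 FL HSC and 31 of 36 BM HSC.

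Slamf1, at bases 171767127 to 171801184 of chromosome 1 (plus strand), split the HSC populations from the others. Its lowest, median and highest TPM were 0, 0 and 414 in the SK cells, 0, 0 and 2.05 in WT-MPP, 0, 2.68 and 728 in BM HSC, and 0, 22.5 and 624 in FL HSC. At a TPM of 10 or more it was found in 44.4% of BM HSC and 53.6% of FL HSC, in no WT-MPP and in 1 of 47 SK cells. That cell, at 414 TPM, held 96.8% of the Slamf1 summed over its population. The MPP gate selects against CD150 and the FL HSC gate for it, whereas the SK gate does not mention it. In FL HSC, sorted as CD150+, Slamf1 was listed at 0 in 13 of 56 cells and lay below a TPM of 1 in 12 others.

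Flt3, at bases 147330741 to 147400489 of chromosome 5 (minus strand), showed a different order. Its lowest, median and highest TPM were 0, 174 and 1012 in the SK cells, 0, 89.9 and 1030 in WT-MPP, 0, 0.287 and 97.4 in BM HSC, and 0, 4.08 and 232 in FL HSC. A TPM of 10 or more was reached in 80.9%, 61.0%, 8.33% and 46.4% of cells in the same order. No BM HSC reached 100 TPM, whereas 29 SK cells, 20 WT-MPP and 10 FL HSC did. The FL HSC held 26 cells below a TPM of 1, 4 from 1 to below 10 and 26 at 10 or above, and the FL HSC gate names no Flt3 protein. In WT-MPP, sorted as CD135+, 10 of 41 cells lay below a TPM of 1. CD135 is not named in the SK gate either.

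Itgam, at bases 128062640 to 128118491 of chromosome 7 (plus strand), was low even where its protein was required. Its lowest, median and highest TPM were 0, 0.357 and 113 in the SK cells, 0, 0 and 104 in WT-MPP, 0, 0 and 87.2 in BM HSC, and 0, 0 and 62.8 in FL HSC. The gene was listed at 0 in 19 of 47 SK cells and 45 of 56 FL HSC, the populations sorted as CD11b+, and in 38 of 41 WT-MPP and 35 of 36 BM HSC. A TPM of 10 or more was reached in 19.1% of the SK cells, 10.7% of FL HSC, 4.88% of WT-MPP and 2.78% of BM HSC. Its partner chain Itgb2, at bases 77530252 to 77565708 of chromosome 10 (plus strand), was present in 23 of 47 SK cells, 2 of 41 WT-MPP, 32 of 56 FL HSC and 3 of 36 BM HSC.

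Itgam and Itgb2 were present together in 10 SK cells, where multiplying their shares would give 8.32 cells, and in 5 FL HSC, where it would give 5.14. No WT-MPP or BM HSC held both. Of the 47 SK cells, 17 held neither chain. Cd48, at bases 171682009 to 171705258 of chromosome 1 (plus strand), behaved differently from Itgam in the same sort. Its TPM in the SK cells was at least 397, with a median of 1517 and a maximum of 3752, and it reached 1 in 17.9% of FL HSC and 17.1% of WT-MPP.

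**Figure D1:**
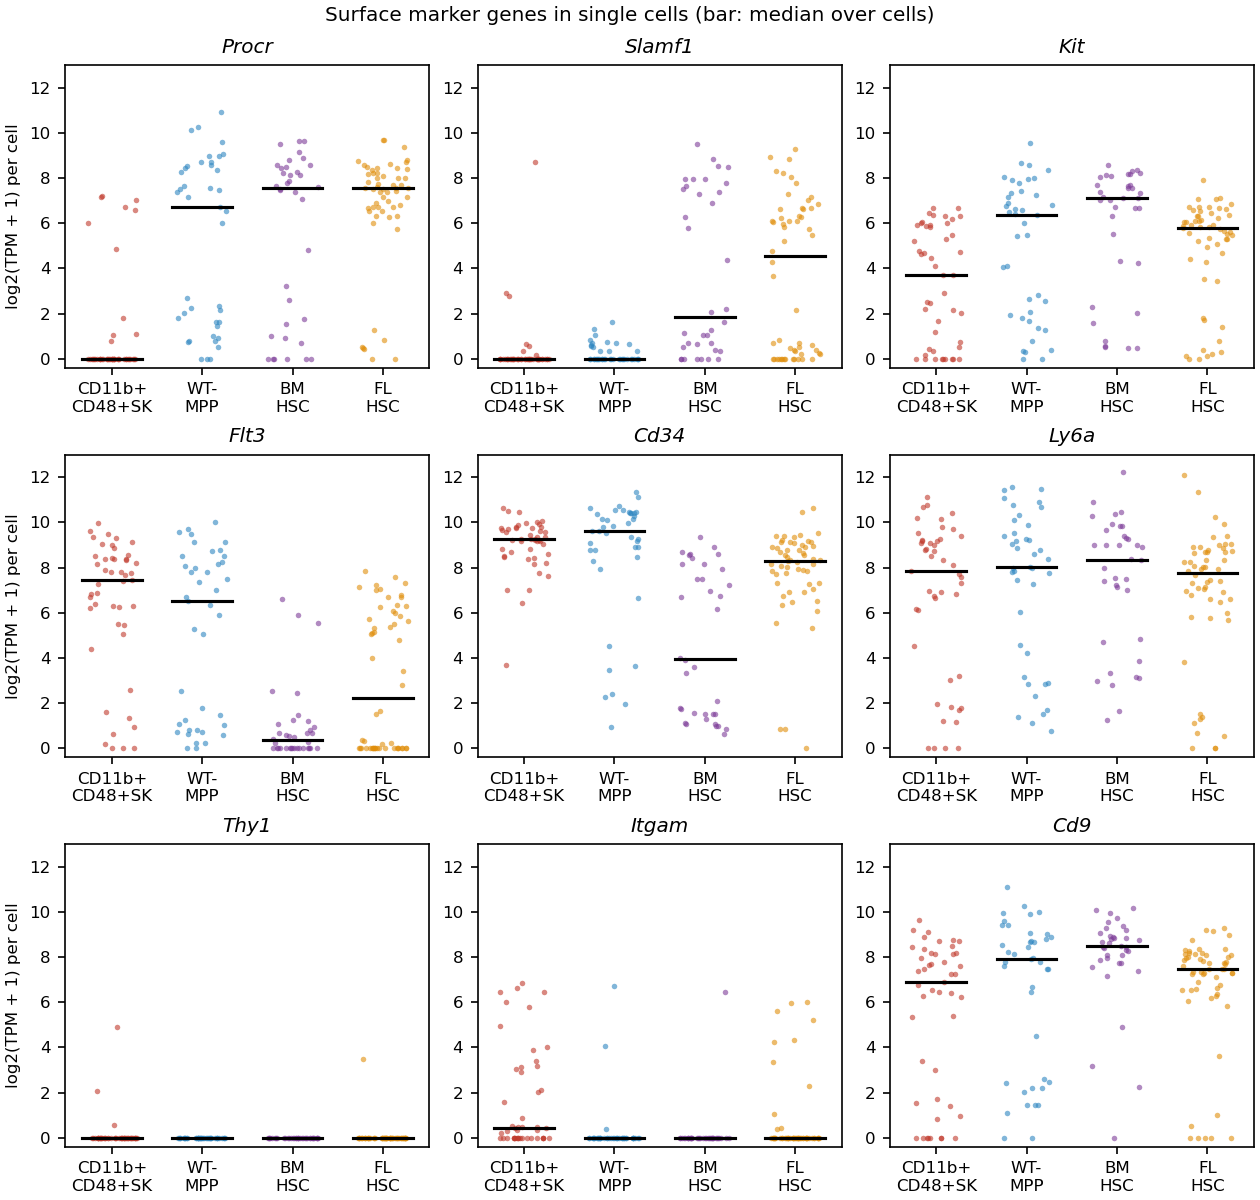
Level of each of the 9 genes in every cell as log2(TPM+1), with 1 panel per gene, 1 point per cell and the population on the horizontal axis. The bar is the median over cells. Some genes fall into a low and a high band of cells within a population, such as Procr in WT-MPP and Cd34 in BM HSC. Others, such as Kit in FL HSC, do not. Flt3 reaches 1012 TPM in SK cells and 97.4 TPM in BM HSC, and Slamf1 stays at or below 2.05 TPM in WT-MPP.

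Procr, at bases 155751117 to 155755471 of chromosome 2 (plus strand), lies outside the stated gates and set the SK cells apart from the other populations. It was present in 21.3% of them (10.7 to 35.7%), 80.5% of WT-MPP (65.1 to 91.2%), 89.3% of FL HSC (78.1 to 96.0%) and 75% of BM HSC (57.8 to 87.9%). The lowest, median and highest TPM were 0, 0 and 145 in the SK cells, 0, 106 and 1929 in WT-MPP, 0, 190 and 809 in BM HSC, and 0, 186 and 836 in FL HSC. Its interval in the SK cells did not overlap that of any other population, and neither did its quartiles overlap those of the next population in order of share, BM HSC.

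Procr varied between the cells of each population, counted here over all cells, with or without it. In WT-MPP, 21 cells were at 100 TPM or above, 2 between 10 and 100, and 18 below 10. BM HSC held 22, 1 and 13 cells in these bands, and FL HSC 41, 8 and 7. Of the cells below 10 TPM, only 10 WT-MPP, 4 BM HSC and 1 FL HSC held Procr at a TPM of 1 or more. Where Procr was present, its median level was 79.5 TPM in the 10 SK cells, 185 TPM in the 33 WT-MPP, 280 TPM in the 27 BM HSC and 194 TPM in the 50 FL HSC. The share at 10 TPM or more was 14.9%, 56.1%, 63.9% and 87.5% in the same order.

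Cd34, at bases 194938819 to 194961279 of chromosome 1 (plus strand), was the highest of the 9 genes by mean log2(TPM+1) in every population but BM HSC. Its lowest, median and highest TPM were 12, 608 and 1587 in the SK cells, 0.898, 790 and 2575 in WT-MPP, 0.556, 14.6 and 645 in BM HSC, and 0, 314 and 1580 in FL HSC. A TPM of 1 was reached in at least 88.9% of the cells of each population, and the levels differed more than the shares. A TPM of 10 or more was reached in 100% of the SK cells, 87.8% of WT-MPP, 94.6% of FL HSC and 55.6% of BM HSC. The BM HSC split into 16 cells below 10 TPM, 4 from 10 to below 100 and 16 at 100 or above, while FL HSC held 3, 6 and 47 cells in these bands.

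Cd9, at bases 125460266 to 125494791 of chromosome 6 (minus strand), was widespread. It was present in 78.7% of the SK cells (64.3 to 89.3%), 95.1% of WT-MPP (83.5 to 99.4%), 89.3% of FL HSC (78.1 to 96.0%) and 97.2% of BM HSC (85.5 to 99.9%), and these intervals overlapped. The lowest, median and highest TPM were 0, 118 and 789 in the SK cells, 0, 240 and 2229 in WT-MPP, 0, 354 and 1168 in BM HSC, and 0, 174 and 628 in FL HSC. BM HSC were the most even, with 32 of 36 cells at 100 TPM or above, against 25 of 47 SK cells, 27 of 41 WT-MPP and 39 of 56 FL HSC. In BM HSC, Cd9 had the highest mean log2(TPM+1) of the 9 genes, at 7.97.

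Thy1, at bases 44043384 to 44048579 of chromosome 9 (plus strand), was almost never read. It was present in 2 of 47 SK cells, at 3.23 and 28.8 TPM, and in 1 of 56 FL HSC, at 10.1 TPM. It was listed at 0 in all 41 WT-MPP and all 36 BM HSC, which by a floor of 3 cells allows a share of up to 7.32% and 8.33%. The T cell list, which would accompany Thy1 in T cells, had 0 of its 3 listed genes present in 10% of the cells of any population, and its summed TPM had a median of 0 throughout and a maximum of 192 in a WT-MPP.

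**Figure D2:**
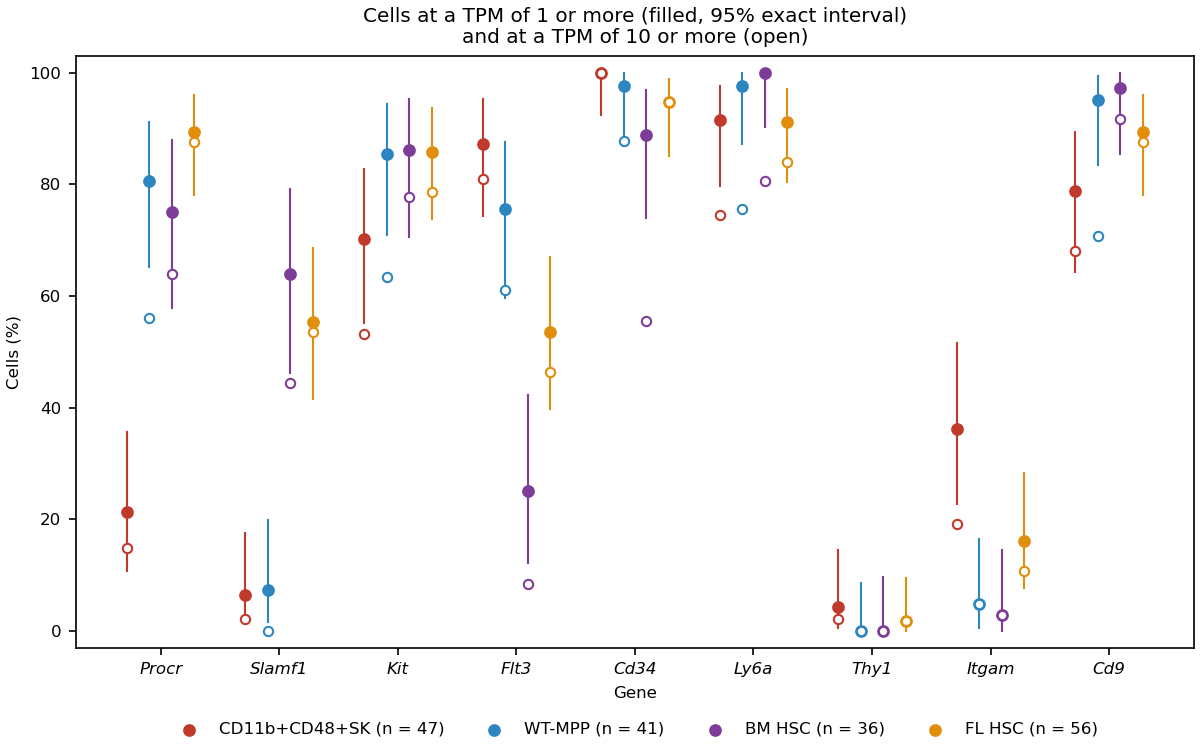
Share of cells in percent (vertical axis) in which each gene (horizontal axis) reached a TPM of 1, as filled points with 95% exact Clopper-Pearson intervals, and a TPM of 10, as open points, in the 4 populations. Procr is present in 21.3% of SK cells against 75% or more elsewhere, and the share of Cd34 in BM HSC is 55.6% at 10 TPM although it is close to those of the other populations at 1 TPM.

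By share of cells present, the neighbours in each gene's order had overlapping intervals, save for Procr between BM HSC and SK cells and Slamf1 between FL HSC and WT-MPP. The order by mean log2(TPM+1) within a population, which may be read across genes because TPM is per length, was Cd34, Ly6a, Flt3, Cd9, Kit, Itgam, Procr, Slamf1 and Thy1 in the SK cells, and Cd34, Ly6a, Cd9, Procr, Flt3, Kit, Itgam, Slamf1 and Thy1 in WT-MPP. In BM HSC it was Cd9, Ly6a, Kit, Procr, Cd34, Slamf1, Flt3, Itgam and Thy1, and in FL HSC Cd34, Ly6a, Procr, Cd9, Kit, Slamf1, Flt3, Itgam and Thy1. Flt3 was thus the third of the 9 in the SK cells and Procr the seventh, while in FL HSC Procr was the third and Flt3 the seventh.

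Differences between populations were taken in mean log2(TPM+1), over 10856 genes, each present in 10% or more of the cells in some population. Of the 9 genes 8 passed this filter, Thy1 did not. A gene was counted where the difference was 1 or more, with no test. The 6 comparisons share populations, so their counts are not independent. Where cells were instead scaled by the median ratio of their expressed genes, the numbers of the 8 genes counted as higher and lower changed in 5 of the 6 comparisons, and are given beside the main ones. The share of all genes counted was not computed after scaling. The percentages below therefore belong to the unscaled counts only.

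Against WT-MPP, the cells that match the gate of the transplanted MPP, 2 of 8 genes were higher in SK cells, where 19.01% of all genes kept were, and 2 were lower, where 5.01% were. Itgam was higher by 1.37 (1.65 against 0.27) and Flt3 by 1.22 (6.38 against 5.15). Procr differed by -4.16 (1.07 against 5.23), with 0.12% of the genes kept lying lower, and Kit by -1.59 (3.34 against 4.93). Cd9 differed by -0.99, Ly6a by -0.53, Cd34 by 0.48 and Slamf1 by 0.09. The median of the 8 genes was -0.22 and that of all genes 0.21. After scaling, 1 gene was higher and 4 were lower, Flt3 having a difference of 0.30. Flt3 also stayed below 1 from log2 of the mean TPM plus 1, at 0.21, and with a pseudocount of 10 the differences of Flt3 and Itgam were 0.75 and 0.51.

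Against BM HSC, 3 of 8 genes were higher in SK cells beside 13.38% of all genes, and 4 were lower beside 11.79%. Flt3 was higher by 5.42 (6.38 against 0.95), Cd34 by 4.32 (9.01 against 4.69) and Itgam by 1.47. Procr differed by -4.47, Slamf1 by -3.38 (0.34 against 3.72), Kit by -2.54 and Cd9 by -2.48, and Ly6a by -0.72. The median was -1.60 over the 8 genes and -0.001 over all genes. After scaling, 3 were higher and 5 lower, and with a pseudocount of 10 Itgam differed by 0.54.

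Against FL HSC, 2 of 8 genes were higher in SK cells beside 4.02% of all genes, and 4 were lower beside 20.94%. Flt3 was higher by 3.33 (6.38 against 3.04) and Cd34 by 1.21 (9.01 against 7.80). Procr differed by -5.70 (1.07 against 6.76), Slamf1 by -3.34 (0.34 against 3.68), Kit by -1.52 and Cd9 by -1.11. Itgam differed by 0.95, although both gates require CD11b, and Ly6a by -0.13. The median of the 8 genes was -0.62, against -0.32 over all genes. After scaling, 3 were higher and 3 lower. From log2 of the mean TPM plus 1, Cd34 differed by 0.81, Kit by -0.95 and Cd9 by -0.14.

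Between the adult populations, 2 of 8 genes were higher in BM HSC than in WT-MPP beside 14.49% of all genes, and 2 were lower beside 2.67%. Slamf1 was higher by 3.47 and Cd9 by 1.49, though the latter shrank to 0.18 from log2 of the mean TPM plus 1. Flt3 differed by -4.20, with 0.0092% of the genes kept lying lower, and Cd34 by -3.83, with 0.018% lying lower. Kit differed by 0.95, Procr by 0.31, Ly6a by 0.19 and Itgam by -0.09. Scaling left 2 higher and 2 lower.

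Between the HSC populations, 3 of 8 genes were higher in FL HSC than in BM HSC beside 25.56% of all genes, and 2 were lower beside 5.44%. Cd34 was higher by 3.11 (7.80 against 4.69), Flt3 by 2.09 and Procr by 1.23, while Cd9 differed by -1.37 and Kit by -1.02. Slamf1 differed by -0.036, Itgam by 0.51 and Ly6a by -0.59. After scaling, 2 were higher and 3 lower, with Procr at 0.66. From log2 of the mean TPM plus 1, Procr differed by -0.037. Its mean TPM was 217 in FL HSC and 222 in BM HSC, while more FL HSC held it.

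Between FL HSC and WT-MPP, 2 of 8 genes were higher in FL HSC beside 33.89% of all genes, and 1 was lower beside 3.08%. Slamf1 was higher by 3.43 and Procr by 1.54, and Flt3 differed by -2.11 (3.04 against 5.15). The median was 0.03 over the 8 genes and 0.56 over all genes, in the populations with the most and the fewest genes present per cell. Cd34 differed by -0.72, Ly6a by -0.40, Itgam by 0.42, Kit by -0.07 and Cd9 by 0.12, the last turning to -1.03 after scaling. After scaling, 1 gene was higher and 5 were lower, and the difference of Procr was 0.41, or -0.24 from log2 of the mean TPM plus 1.

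**Figure D3:**
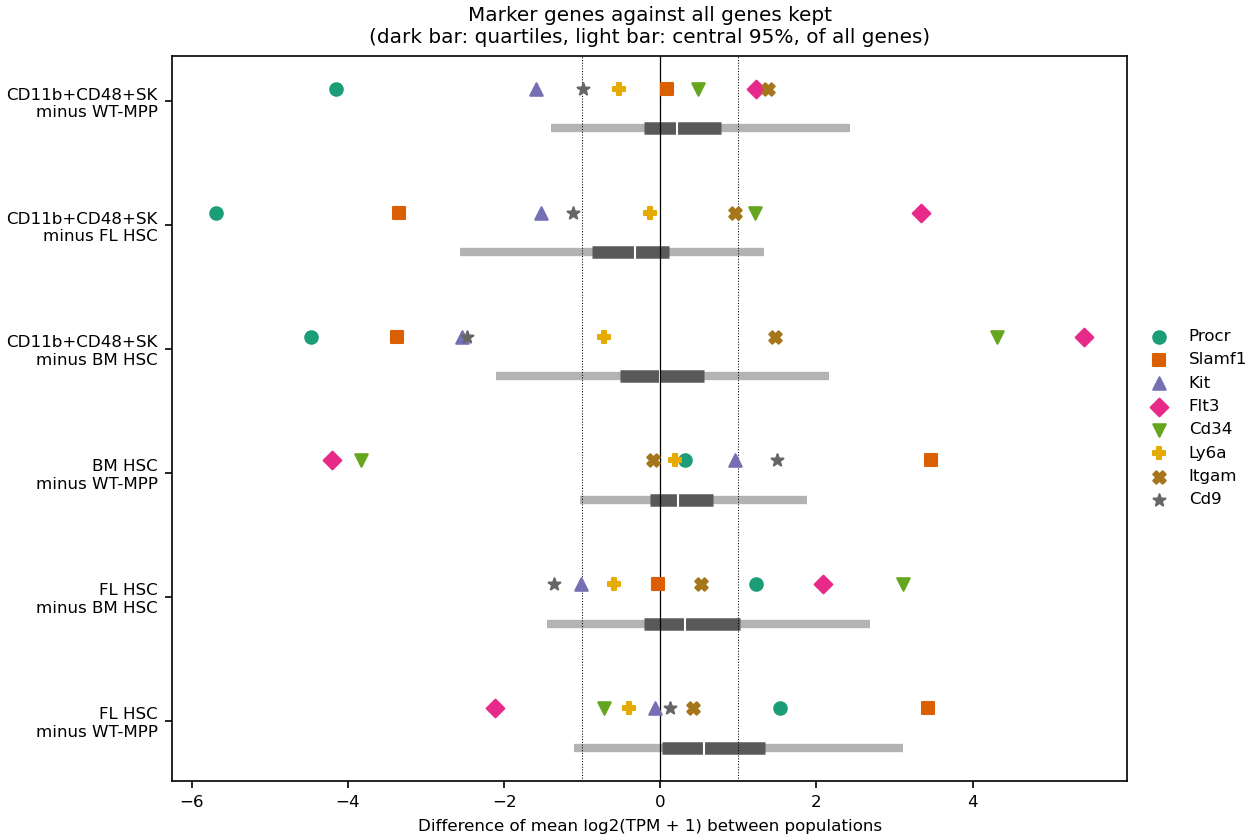
Difference in mean log2(TPM+1) (horizontal axis) of the 8 genes kept by the filter in each of the 6 comparisons (vertical axis), with symbols for genes, dotted lines at a difference of 1 in each direction, and bars for the quartiles (dark) and the central 95% (light) of the 10856 genes kept. Procr lies between -5.70 and -4.16 in the comparisons of SK cells, and Flt3 between 1.22 and 5.42.

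The number of the 9 genes present per cell had a median of 5 in the SK cells (3 to 8) and 6 in WT-MPP (3 to 8), BM HSC (3 to 8) and FL HSC (4 to 8). No cell held all 9. Its Spearman's rho with the genes present per cell was 0.41, 0.44, 0.45 and 0.24 in the order above, across cells that share a population. The commonest combination in the SK cells was Kit, Flt3, Cd34, Ly6a and Cd9, in 11 of 47 cells. In WT-MPP it was the same set with Procr, in 18 of 41. In BM HSC it was Procr, Slamf1, Kit, Cd34, Ly6a and Cd9, in 11 of 36, and in FL HSC that set with Flt3, in 11 of 56. There were 22, 14, 13 and 27 different combinations in the 4 populations.

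The joint reading of Slamf1 and Flt3, receptors of HSC and of MPP respectively, depended on the threshold in the HSC of marrow and fetal liver. At a TPM of 1, Slamf1 without Flt3 was found in 19.6% of FL HSC (10.2 to 32.4%) and 50% of BM HSC (32.9 to 67.1%). Both genes were present in 35.7% of FL HSC (23.4 to 49.6%) and 13.9% of BM HSC (4.67 to 29.5%). At any TPM above 0, however, both were listed in 48.2% of FL HSC and 41.7% of BM HSC, and Slamf1 without Flt3 in 28.6% and 38.9%. At a TPM of 10 or more, both were found in 0 of 36 BM HSC, which by a floor of 3 cells allows a share of up to 8.33%, and in 16 of 56 FL HSC. The intervals of Slamf1 without Flt3 overlapped there, at 25% of FL HSC (14.4 to 38.4%) and 44.4% of BM HSC (27.9 to 61.9%). Multiplying the shares at 10 TPM would give 1.33 cells in BM HSC and 13.9 in FL HSC. Flt3 without Slamf1 was the state of 83.0% of the SK cells (69.2 to 92.4%) and 70.7% of WT-MPP (54.5 to 83.9%).

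Cd34 and Flt3 have been used together to order adult HSC and MPP. Both were present in 87.2% of the SK cells, 75.6% of WT-MPP, 50% of FL HSC and 25% of BM HSC. The share moved most with the threshold in BM HSC, where it was 55.6% at any TPM above 0, beside 58.9% of FL HSC, and 8.33% at a TPM of 10, beside 44.6% of FL HSC. At a TPM of 1, Cd34 without Flt3 was found in 63.9% of BM HSC and 44.6% of FL HSC, against 12.8% of the SK cells and 22% of WT-MPP. At a TPM of 10 or more, neither gene was found in 16 of 36 BM HSC, 2 of 56 FL HSC, 3 of 41 WT-MPP and 0 of 47 SK cells. Flt3 without Cd34 was found at a TPM of 1 in 2 FL HSC and in no other cell.

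**Figure D4:**
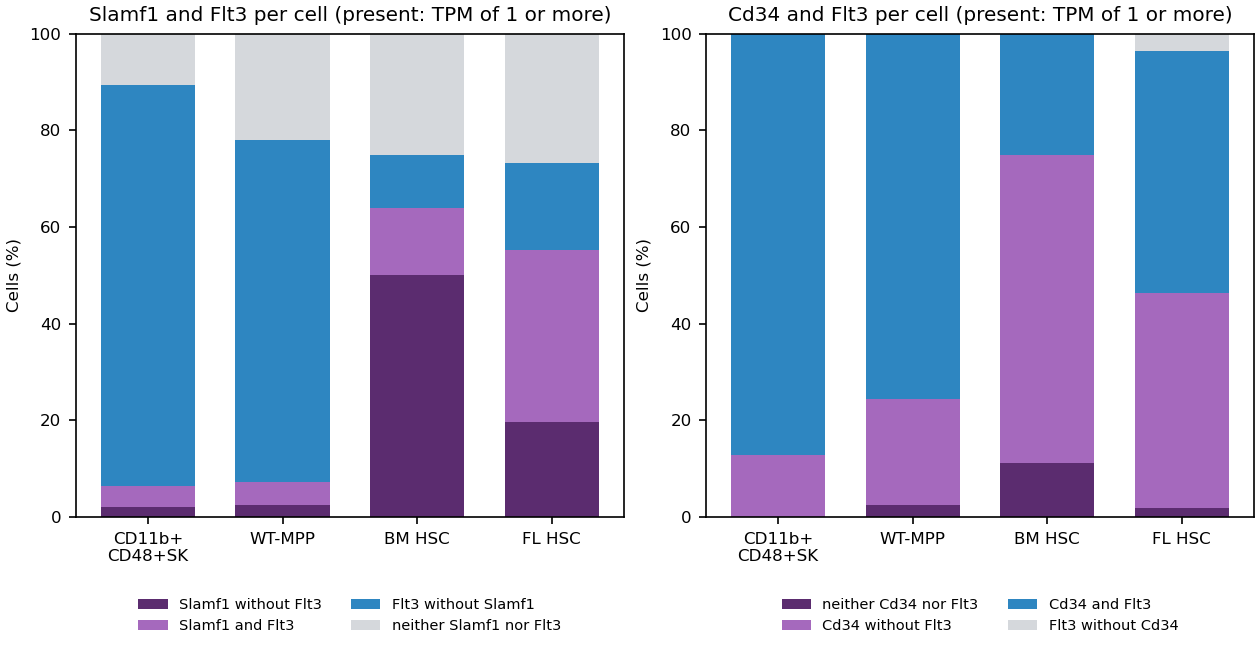
Share of cells in percent (vertical axis) of each population (horizontal axis) by the joint presence, at a TPM of 1 or more, of Slamf1 and Flt3 (left) and of Cd34 and Flt3 (right), as stacked bars that sum to 100%. Slamf1 without Flt3 makes up 50% of BM HSC and 19.6% of FL HSC, and Cd34 with Flt3 makes up 87.2% of SK cells and 25% of BM HSC.

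The transcripts of a whole gate were read together in some of the cells sorted by it, and the shares moved with the threshold. Kit, Ly6a, Itgam and Cd48 were present together in 12 of 47 SK cells (25.5%, 13.9 to 40.3%), in 1 of 56 FL HSC and in no WT-MPP or BM HSC. In the SK cells this share was 42.6% at any TPM above 0 and 6.38% at a TPM of 10. Kit, Ly6a and Flt3 without Slamf1, Itgam and Cd48, as in the MPP gate, were read in 21 of 41 WT-MPP (51.2%, 35.1 to 67.1%), 4 of 36 BM HSC, 3 of 56 FL HSC and 0 of 47 SK cells. Kit, Ly6a, Itgam and Slamf1, as in the FL HSC gate, were read in 4 of 56 FL HSC (7.14%, 1.98 to 17.3%), 2 SK cells, 1 WT-MPP and 1 BM HSC. Procr and Slamf1 without Cd48, a scheme for HSC that no stated gate used in full, were read in 50% of BM HSC (32.9 to 67.1%), 37.5% of FL HSC (24.9 to 51.5%), 3 of 41 WT-MPP and 0 of 47 SK cells. The share in WT-MPP was 26.8% at any TPM above 0 and 0 at a TPM of 10. Cd48 was sorted for and reached at least 397 TPM in every SK cell. Both combinations without Cd48, this scheme and the MPP gate, were therefore fixed at 0 in the SK cells.

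Among the 36 pairs of the 9 genes in each population, most were read together in about as many cells as their shares would give if multiplied. In the SK cells, all 17 cells with Itgam also held Flt3, where multiplying the shares would give 14.8. All 10 SK cells with Procr held Flt3 against 8.72. In BM HSC, Slamf1 and Kit were read together in 22 cells against 19.8, all 9 cells with Flt3 held Procr against 6.75, and Slamf1 and Cd34 met in 19 cells against 20.4. In FL HSC, Slamf1 and Flt3 met in 20 cells against 16.6. At a TPM of 10, Slamf1 and Kit met in 12 BM HSC against 12.4, Itgam and Flt3 in 7 SK cells against 7.28, and Slamf1 and Flt3 in 16 FL HSC against 13.9. Procr and Flt3 met at that threshold in 2 BM HSC against 1.92 and in 5 SK cells against 5.66.

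The genes present per cell moved with some of these readings. BM HSC with Flt3 had a median of 5356 genes present and those without 4378, and WT-MPP with Kit had 3940 and those without 2971. For Slamf1 in BM HSC the medians were 4437 with and 4446 without, and for Procr in WT-MPP 3850 and 3745. The part of depth in the pairs was not tested.

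**Figure D5:**
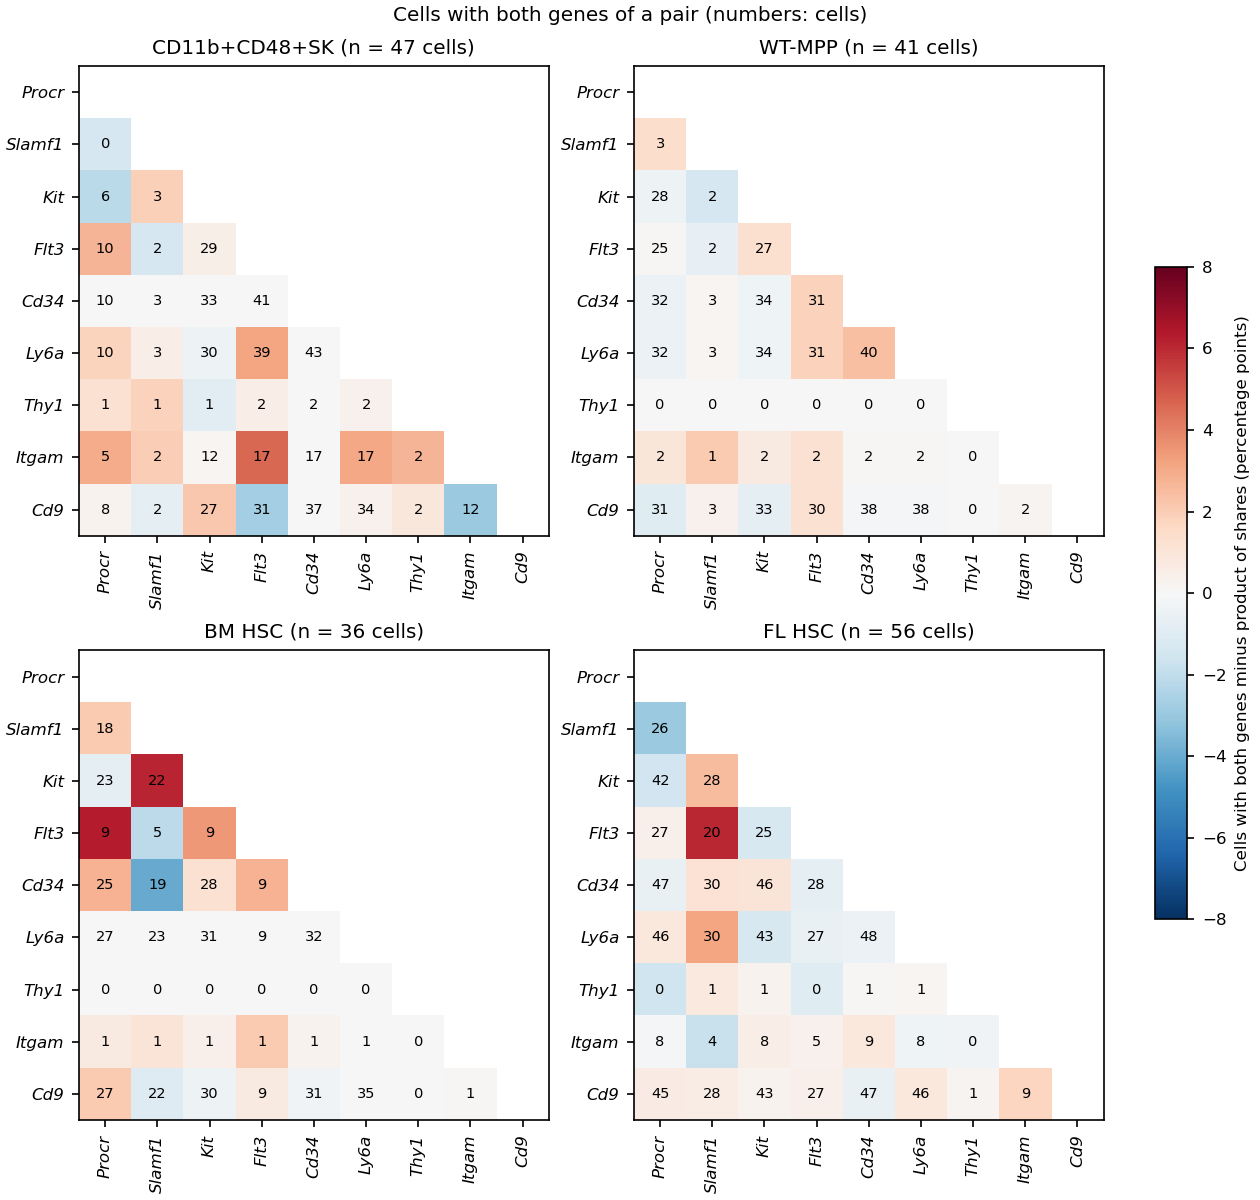
Number of cells in which both genes of a pair were at a TPM of 1 or more (number in each square), with 1 panel per population and the genes on both axes. The colour gives the share of cells with both genes minus the product of the shares, in percentage points. Most squares are pale, and those of a gene present in every cell or in none could not be otherwise. The darkest red squares are Procr with Flt3 (9 cells) and Slamf1 with Kit (22 cells) in BM HSC and Slamf1 with Flt3 (20 cells) in FL HSC.

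The genes whose levels ran most like each member were ranked by Spearman's rho of TPM over all 180 cells among 9592 genes, as a description without a test, since cells share populations and differ in the genes detected. For Flt3 the most alike was Dntt, which adds bases at the joints of rearranging antigen receptor genes in early lymphoid cells, with a rho of 0.57 and a mean of 0.51 within the 3 populations in which it was listed above 0. Its rho was 0.76 in the SK cells, 0.49 in WT-MPP and 0.27 in BM HSC. For Ly6a they were the interferon-inducible GTPase genes Tgtp2 (0.39, mean within populations 0.37) and Tgtp1 (0.38, 0.35), whose similarity of sequence can split reads between them. On average the likeness within populations was nearly as large for Ly6a as across them, while for Flt3 it differed between populations.

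For the other members the mean within populations was lower. Procr ran most like Gimap6 (0.61 over all cells, mean 0.26 within populations), Slamf1 like the adhesion gene Esam (0.55, 0.26), Cd34 like the tetraspanin gene Cd53 (0.49, 0.16), Itgam like Cst7 (0.51, 0.22 over 2 populations), Kit like Mmrn1 (0.39, 0.20 over 3 populations) and Cd9 like the immediate early gene Egr1 (0.33, 0.10). In sparse values such weak likeness within populations is no finding. Among the members themselves within a population, Slamf1 and Cd9 in BM HSC had a rho of -0.34 and Procr and Ly6a 0.30. Flt3 and Cd34 had 0.28 in the SK cells and 0.30 in BM HSC. Procr and Cd9 had 0.30 in WT-MPP. These are examples from 36 pairs in each population, without a test.

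Other genes of surface schemes were read from a list of 25 stem cell genes, 24 of which passed the filter, and a list of 22 progenitor and lineage genes, 20 of which are listed and 16 passed. Among the stem cell genes, 5 were lower and 4 higher in the SK cells than in WT-MPP, 10 lower and 4 higher than in FL HSC, and 10 lower and 4 higher than in BM HSC, of the 24 kept, beside the percentages of all genes given above. Cd63, a tetraspanin of late endosomes, was present in 63.8% of the SK cells and in 100% elsewhere. Esam was present in 12.8% of the SK cells, 61.0% of WT-MPP, 100% of FL HSC and 97.2% of BM HSC. The genes higher in the SK cells in each of these comparisons were Cd48, Cd53, Cd37 and Cd244, of which Cd48 was sorted for and Cd244 is named after its values were seen. In this order they were present in 100%, 97.9%, 93.6% and 57.4% of the SK cells. In BM HSC the shares were 2.78%, 16.7%, 47.2% and 0%. A place on the stem cell list therefore does not mean that a gene was high in HSC.

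Among the progenitor and lineage genes, 4 were higher and none lower in the SK cells than in WT-MPP, 5 higher and 2 lower than in FL HSC, and 7 higher and 3 lower than in BM HSC, of the 16 kept. In the same order 19.01%, 4.02% and 13.38% of all genes were higher and 5.01%, 20.94% and 11.79% lower. Itgal, the alpha chain of LFA-1, was present in 66.0% of the SK cells and at most 4.88% of any other population. Epor, the erythropoietin receptor, was listed at 0 in all 47 SK cells and present in 41.1% of FL HSC.

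Between the populations that were not transplanted, the stem cell list held 5 genes higher and 3 lower in BM HSC than in WT-MPP, 9 higher and 4 lower in FL HSC than in BM HSC, and 8 higher and none lower in FL HSC than in WT-MPP, of the 24 kept. Of all genes, 14.49%, 25.56% and 33.89% were higher and 2.67%, 5.44% and 3.08% lower in the same order, so that 8 of 24 lay near the share of all genes. Jam3, an adhesion molecule of HSC, was present in 82.1% of FL HSC, 25% of BM HSC, 12.2% of WT-MPP and no SK cell. Itga2b, the integrin chain CD41, was present in 16.1% of FL HSC and 36.1% of BM HSC. The progenitor list held 2 higher and 3 lower in BM HSC than in WT-MPP, 6 higher and 2 lower in FL HSC than in BM HSC, and 3 higher and 2 lower in FL HSC than in WT-MPP, of the 16 kept and beside the same percentages. Itgb2 was higher in FL HSC by 3.13 than in either adult population.

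Markers of other blood cells were read beside these genes, and their part in the differences was not tested. Of the mature myeloid list 8 of 10 genes are listed, and its summed TPM had medians of 1075 in the SK cells (281 to 2979), 885 in WT-MPP (9.20 to 4159), 963 in BM HSC (219 to 3367) and 1181 in FL HSC (79.1 to 3802). Of these 8 genes, 2 were present in 10% or more of the SK cells and of the FL HSC. Only 1 was in WT-MPP and in BM HSC, so the sums rest mostly on few genes. Camp, Ltf, Csf1r, Cd14 and Emr1 were at 0 in every SK cell, and S100a8 and S100a9 were at 0 in every cell of the other populations. The mast cell and basophil list, with 3 of 5 genes listed, had a median of 144 TPM in the SK cells (0 to 9249) and 0 in the others. The erythroid list, with 4 of 6 genes listed, had a median of 987 TPM in FL HSC (20.8 to 4749) and 0 in the others. The megakaryocyte list had medians of 1.03, 2.57, 189 and 161 TPM in the SK cells, WT-MPP, BM HSC and FL HSC, the endothelial list 40.3, 123, 36.1 and 155, and the B cell list 105, 2.72, 193 and 209. Of the 3 B cell genes listed, 1, 1, 1 and 2 were present in 10% or more of the cells in this order.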

How the data were processed

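Single cells were amplified with the Discover-sc WTA Kit V2 and sequenced on an Illumina NextSeq. The submitters' processing notes name bcl2fastq, HISAT2 2.1.0, SAMtools 0.1.19, StringTie 1.3.4 and the mm10 genome. The authors deposited 1 table of TPM per gene and cell. The annotation, any choice of genes and the read depth are not given in the sources used here. The table holds 181 columns of cells, of which 1 matched no sample and was not used, and no 2 used columns were identical. Cells were grouped by their labels, and a replicate number only names a cell.

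The members and gene lists were chosen with earlier results of these data known. Presence was a TPM of 1 or more. Differences were taken in mean log2(TPM+1), with a pseudocount of 1, which understates changes of low genes, and counted at a size of 1 over genes present in 10% of the cells of at least 1 population. Without named animals no p-value was computed. The floor for a gene at 0 was 3 cells of the total, and intervals and floors cover the counting of cells only.

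Genes named beside the members were Cd48, Itgb2, the 3 genes most alike to each member, of which those with the highest rho are given, and from each surface list the 3 genes of largest difference in each direction per comparison, of which examples are given, some genes not being reported here. Positions are from GENCODE M21 on GRCm38, and windows before gene starts from RefSeq. Alternatives covered the threshold, pseudocount, averaging, filter, scaling of cells and cells with 3500 or more genes present. In a simulated check, a known change was put into some genes of part of the WT-MPP, and the difference in mean log2(TPM+1) was recomputed. That check covered the arithmetic of the difference only, not shares, intervals, pairs of genes or scaling. Python 3.11.15, numpy 2.4.6, pandas 2.3.3, scipy 1.17.1 and matplotlib 3.10.9 were used.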

Additional observations from a re-analysis of the deposited data

How the results depend on the processing

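Differences of the 8 genes kept their direction and their side of a difference of 1 in most settings, and 3 that reached a size of 1 as reported or in the other setting changed sign. From log2 of the mean TPM plus 1, Procr differed by -0.037 between FL HSC and BM HSC and by -0.24 between FL HSC and WT-MPP, and with scaled cells Cd9 differed by -1.03 between FL HSC and WT-MPP. Of the recomputed differences, 199 stayed alike, 19 fell below a size of 1 and 19 newly reached it. Of the recomputed shares of cells 260 stayed within their interval and 76 moved out of it, of which 37 with a threshold of any TPM above 0, 36 with a threshold of 10 TPM and 3 with cells of 3500 or more genes. The filter on low values does not enter the difference of a single gene. The median of all genes moved by over 0.1 with the scaling in 5 of 6 comparisons, from 0.21 to -0.06 between SK cells and WT-MPP, from -0.001 to -0.16 between SK cells and BM HSC, from 0.22 to 0.09 between BM HSC and WT-MPP, from 0.31 to 0.06 between FL HSC and BM HSC, and from 0.56 to 0.16 between FL HSC and WT-MPP. From log2 of the mean TPM plus 1 it turned to -0.32 between SK cells and WT-MPP, to -0.13 between FL HSC and BM HSC and to -0.10 between FL HSC and WT-MPP.

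Counts of genes past a difference of 1, in either direction, moved by over 1.5 times as follows. With a pseudocount of 0.1, the progenitor list between SK cells and WT-MPP went from 4 to 7. With a pseudocount of 10, the members went from 4 to 2 in that comparison and from 5 to 3 between FL HSC and BM HSC. The stem cell list went from 8 to 5 between BM HSC and WT-MPP, from 13 to 6 between FL HSC and BM HSC, and from 8 to 4 between FL HSC and WT-MPP. The progenitor list went from 10 to 6 between SK cells and BM HSC, from 5 to 1 between BM HSC and WT-MPP, and from 8 to 3 between FL HSC and BM HSC. From log2 of the mean TPM plus 1, the stem cell list went from 9 to 14 and the progenitor list from 4 to 8 between SK cells and WT-MPP, and the progenitor list from 5 to 8 in WT-MPP against either HSC population. With scaled cells, the members went from 3 to 6 between FL HSC and WT-MPP. The share of all genes past a difference of 1 was not computed in any of these settings, and the cause was not tested. A single cell decided Slamf1 between SK cells and WT-MPP, whose difference was 0.09 as reported and 3.02 from log2 of the mean TPM plus 1. No paired analysis was possible because a replicate number only names a cell and no result comes from a test. Leaving out cells in turn was not run, as each group holds over 5 cells. Depth is unknown, so a gene at 0 may be a failed reading.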
